A study of Mus musculus with 26 samples.

Results

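Promoter ATAC-seq peaks shared by both states of E14 mouse embryonic stem cells were examined. These are peaks of the mESC+ list that overlap a peak of the mESC- list by at least 1 bp and whose summit lies within 1 kb of the start of a protein-coding gene in GRCm38. Of 163484 peaks in the mESC+ list, 120853 overlapped 1 of the 141465 peaks in the mESC- list, and 18468 of these met the promoter rule. They make up 11.3% of the mESC+ list (95% exact interval 11.1 to 11.5) and 15.3% of its shared peaks. Membership was chosen by the presence of a called peak in both lists, so presence, width and rank are given below as descriptions without a test.

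E14 is an established line of mouse embryonic stem cells, and leukemia inhibitory factor (LIF) keeps such cells pluripotent. All cells were grown for 48 h in medium with LIF. In the last 4 h, mESC+ cells kept LIF, whereas mESC- cells had LIF withdrawn and received 1 µM retinoic acid (RA). A single Omni-ATAC-seq library was made for each state, so no comparison between the states has a replicate check. Read depth is unknown from the peak lists, and intervals cover counting error over peaks or genes only. Both lists give a fold enrichment of each peak at its summit over the local background. Because this value is scaled within a library, peaks were compared by the percentile of their fold enrichment in their own list, where 100 is the strongest peak. The peak of the mESC- list with the largest overlap is called the partner of a member.

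In ATAC-seq, a transposase inserts adapters where DNA is not wrapped in nucleosomes, and the start of an active or poised gene usually carries such an open stretch. Many mammalian promoters lie in CpG islands, stretches rich in C, G and the CpG dinucleotide that mostly stay unmethylated and open across cell types, while promoters poor in CpG tend to be open only where the gene is in use. Common promoter elements are the GC box bound by Sp1 and Klf proteins, the CCAAT box bound by NF-Y and the core site of ETS proteins. RA acts through receptors (Rara, Rarb, Rarg) that bind DNA with their partners Rxra, Rxrb and Rxrg at pairs of AGGTCA-like hexamers.

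The sequences of several members are shown first. From all members and from 6 of the gene lists used below, the member with the highest mean percentile over both lists and a long enough stretch without an annotated exon was taken. This stretch of the part common to both peaks is printed, up to 150 bp. All sequences are from GRCm38.p6, are written 5′ to 3′ on the strand of the gene and lie within 214 bp upstream of its start. Capitals mark a CCAAT box (CCAAT, or ATTGG on the other strand), a GC box (GGGCGG or CCGCCC) or a cAMP response element (TGACGTCA). Glipr1l1 holds the highest-ranked member of all and Zfp157 that of the zinc finger genes. The others come from the LIF and STAT3 list (Jak1), the pluripotency list (Klf5), the RA response list (Tgm2), the germline list (Rnf17) and the ribosomal proteins (Rpl22l1).
Glipr1l1, chr10:112060039-112060188, plus strand: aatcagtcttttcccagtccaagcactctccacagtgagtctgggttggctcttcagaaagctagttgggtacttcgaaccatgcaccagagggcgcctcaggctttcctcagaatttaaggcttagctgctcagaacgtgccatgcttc
Zfp157, chr5:138441318-138441467, plus strand: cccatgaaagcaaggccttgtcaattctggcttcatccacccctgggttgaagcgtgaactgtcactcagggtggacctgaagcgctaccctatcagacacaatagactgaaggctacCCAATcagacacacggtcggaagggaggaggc
Jak1, chr4:101265283-101265432, minus strand: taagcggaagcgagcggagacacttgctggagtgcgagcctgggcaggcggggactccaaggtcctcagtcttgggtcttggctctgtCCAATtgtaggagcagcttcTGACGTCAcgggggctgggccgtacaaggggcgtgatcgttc
Klf5, chr14:99298477-99298626, plus strand: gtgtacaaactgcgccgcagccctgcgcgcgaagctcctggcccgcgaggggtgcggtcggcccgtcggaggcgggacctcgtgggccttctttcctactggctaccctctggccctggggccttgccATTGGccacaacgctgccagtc
Tgm2, chr2:158146437-158146565, minus strand: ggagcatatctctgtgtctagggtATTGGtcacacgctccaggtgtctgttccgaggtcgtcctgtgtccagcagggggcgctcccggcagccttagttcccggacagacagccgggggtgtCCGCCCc
Rnf17, chr14:56402500-56402580, plus strand: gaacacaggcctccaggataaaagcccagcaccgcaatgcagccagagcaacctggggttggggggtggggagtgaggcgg
Rpl22l1, chr3:28805337-28805435, plus strand: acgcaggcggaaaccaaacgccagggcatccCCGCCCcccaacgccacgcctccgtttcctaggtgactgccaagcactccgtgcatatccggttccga
The Glipr1l1 and Rnf17 stretches hold none of the marked motifs, and both peaks are strong. The fold enrichment of the Glipr1l1 member was 28.5 in mESC+ and 26.1 in mESC-, and that of the Rnf17 member was 18 and 14.8. In Zfp157, Jak1, Klf5 and Tgm2 a CCAAT box is present, and Jak1 carries a complete cAMP response element beside it.

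Members covered 14180 of 21938 protein-coding genes, which is 64.6% (95% exact interval 64 to 65.3). Of the genes without a member, 7043 had no summit of either list within 1 kb of their start, 452 had a summit of the mESC+ list alone and 164 of the mESC- list alone. A further 65 genes had peaks of both lists that did not overlap, and 34 had only the mESC- summit of a shared peak within reach. A single member was found at 9003 genes, 2 at 4227 and 3 or more at 950. Conversely, 16601 members lay near 1 gene start and 1670 lay near starts on both strands, as at divergent gene pairs. Members near starts on both strands had a median width of 413 bp in mESC+, against 366 bp for members near 1 start.

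Called near a gene start, a peak was usually found in both states. Of the 20961 mESC+ peaks with a summit within 1 kb of a start, 88.1% were shared (95% exact interval 87.7 to 88.5), against 71.8% of the 142523 mESC+ peaks farther away (71.6 to 72.1). In the other direction, 92.3% of 20289 mESC- promoter peaks overlapped an mESC+ peak. The promoter peaks left out were small. In mESC+, the 2493 unshared promoter peaks had a median width of 128 bp and a median percentile of 10.2, and in mESC-, the 1569 unshared promoter peaks had 124 bp and 7.92. The upper quartile of the percentile was 21.3 for the unshared mESC+ promoter peaks and 16.4 for those of mESC-.

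Summits were densest just upstream of the gene start, with 51.2% upstream or at the start in all. The signed distance to the nearest start had a median of -4 bp, and 4928 members (26.7%) had their summit in the 100 bp upstream, the fullest of 20 bins. The next bins were the first 100 bp downstream with 2561 summits and the stretch from 100 to 200 bp upstream with 1715. Downstream, the count dipped to 829 between 100 and 200 bp and was higher again, at 1111, between 200 and 300 bp. The mESC- partners had the same dip, with 914 and 989 summits in these bins. Beyond 200 bp, 5655 members lay downstream and 2771 upstream. Within pairs, summits of both states were a median of 28 bp apart, and 83.2% were within 100 bp of each other.

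**Figure D1:**
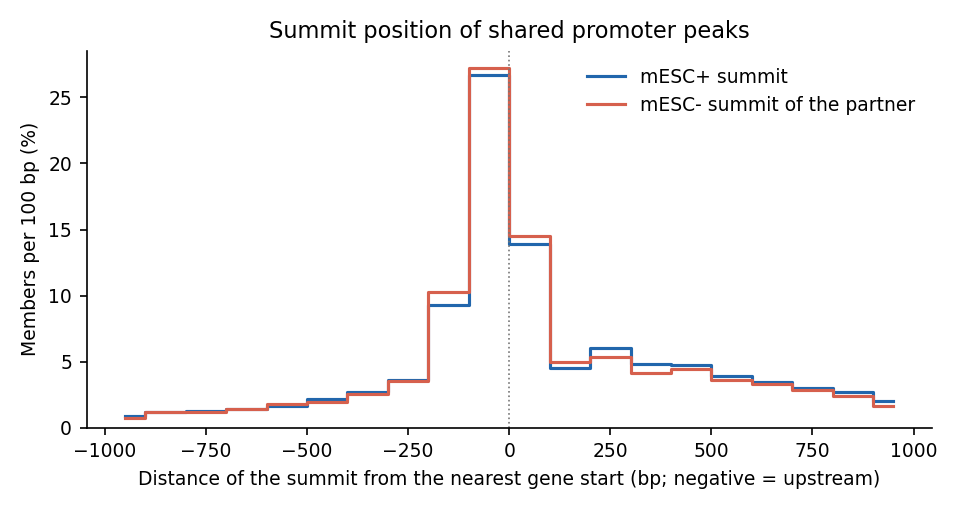
Share of the 18468 members (vertical axis, percent per 100-bp bin) by the distance of the summit from the nearest gene start (horizontal axis, bp, negative upstream), for the mESC+ summit (blue) and the summit of its mESC- partner (red). Both lines peak in the 100 bp upstream of the start, at 26.7% and 27.2%, and dip between 100 and 200 bp downstream.

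Width and rank followed the distance from the start. Members with a summit within 100 bp of it had a median width of 444.5 bp and a median percentile of 81.2 in mESC+ (n = 7504). Beyond that and up to 300 bp the medians were 422.5 bp and 69.8, and from over 500 bp to 1000 bp they were 234 bp and 41.1 (n = 3968). The limit of 1 kb itself had equal counts on either side, with 538 members in the last 100 bp inside it and 538 shared peaks in the first 100 bp outside. Just inside it were members at Gjc1, a connexin gene, at Gm11084 and at Lypd1, all 1000 bp from the start and with mESC+ percentiles of 89.2, 71.9 and 38.7. Just outside were shared peaks nearest to Hist1h1b, Tnik and Hmga1, all 1 bp beyond the limit, with percentiles of 53.7, 42.3 and 11.2. The Hist1h1b and Hmga1 peaks are wide, 1296 and 1050 bp.

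Members were wider than shared peaks elsewhere. Their median width was 369 bp in mESC+ (95% interval of the median 364 to 375) and 393 bp for the mESC- partners (388 to 399). The 102385 shared peaks beyond 1 kb had medians of 205 and 194 bp. Width above 500 bp was found for 32.2% of members and 5.73% of shared peaks farther away. Of the 469 mESC+ peaks wider than 1000 bp, 335 were members. Within pairs the width hardly shifted, with a median change of -1 bp, 9017 members wider in mESC- and 9339 narrower.

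In rank, members stood above the middle of both lists, with a wide spread. Their median fold enrichment was 8.48 in mESC+ and 8.42 for the partners, at median percentiles of 68 (95% interval 66.2 to 68.4) and 68.9 (68.5 to 69.4). The middle 50% of members spanned percentiles 36.3 to 86.4 in mESC+. Shared peaks beyond 1 kb had median percentiles of 61.3 and 56.3. By construction 10% of the mESC+ list is in its top 10%. Of the members, 3467 (18.8%) were there, against 12.6% of shared peaks farther away, and 2804 of these 3467 had a partner in the top 10% of the mESC- list.

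**Figure D2:**
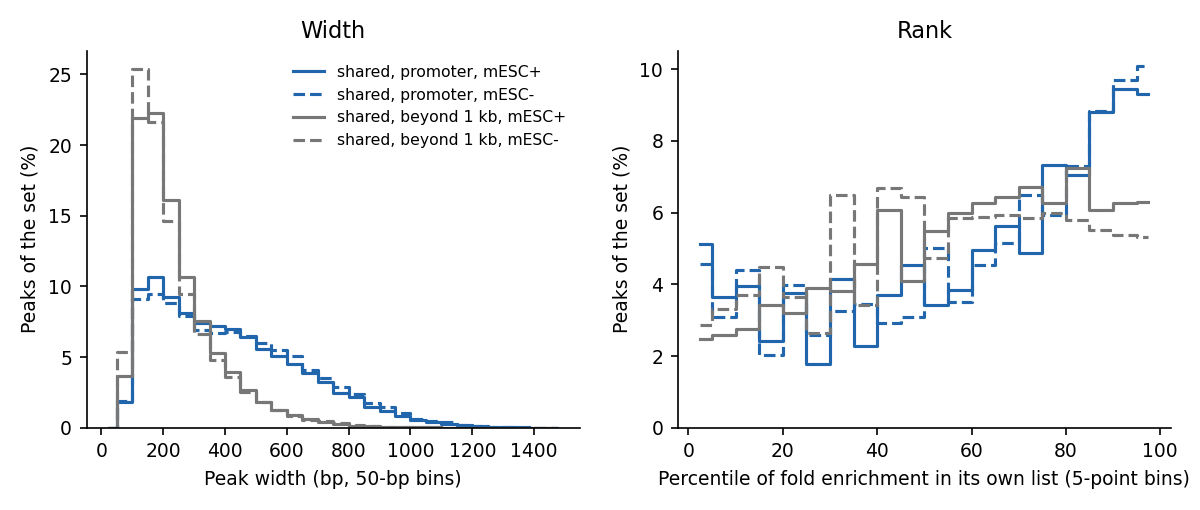
Width in 50-bp bins up to 1500 bp (left, bp) and percentile of fold enrichment in 5-point bins (right) of members (blue) and of shared peaks beyond 1 kb of a start (grey), as percent of each set, in mESC+ (solid) and mESC- (dashed). Members extend to larger widths, with medians of 369 and 393 bp against 205 and 194 bp, and fill the highest percentiles more than the grey set does.

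The 5 members with the highest mean percentile over both lists were at Glipr1l1, Pik3c3, Cr2, 2610008E11Rik and Zfp157. Pik3c3 encodes the lipid kinase Vps34 of autophagy, Cr2 a complement receptor of B cells, and Zfp157 a zinc finger protein. Their fold enrichments were between 24.8 and 28.5 in mESC+ and between 23.6 and 26.1 in mESC-. All 5 summits were within 44 bp of the gene start and the widths were ordinary, from 289 to 518 bp in mESC+. The 5 widest members were others. At Ism1, a secreted protein gene, the mESC+ peak was 1938 bp wide and its partner 1470 bp. Tmem229a had 1654 and 1697 bp, Stim1, the calcium sensor of the endoplasmic reticulum, 1619 and 1661 bp, and Rnf225 1490 and 1602 bp. At Fut8, a fucosyltransferase gene, the mESC+ peak of 1597 bp overlapped 3 mESC- peaks, the partner being 769 bp wide. None of the 5 widest exceeded a percentile of 85.8 in mESC+.

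Between the states, most members kept their place. The change in percentile from mESC+ to the mESC- partner had a median of -0.337 with quartiles of -6.97 and 4.97. Among all shared peaks, 17.8% had a partner at least 10 points higher and 29.5% one at least 10 points lower. The members had 2938 (15.9%) and 3468 (18.8%) such cases, and 12062 (65.3%) moved by less than 10 points. Of shared peaks beyond 1 kb, 50.4% moved by less than 10 points and 31.5% were at least 10 points lower. In all, 47.6% of members ranked higher in mESC- (95% exact interval 46.9 to 48.4), against 40.8% of shared peaks farther away. When percentiles were taken among shared peaks alone, 57% of members ranked higher in mESC-, so which side of 50% they fall on depends on the reference set.

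The very largest changes belonged to peaks that were split in 1 list and joined in the other. The 5 largest gains were at Mvd, an enzyme gene of cholesterol synthesis, Atp5h, a subunit of ATP synthase, Mrpl50, a mitochondrial ribosomal protein, Btrc, a subunit of an SCF ubiquitin ligase, and Steap4, a metalloreductase. Each of these members is 98 bp wide in mESC+, the smallest width in that list, at a percentile between 0.533 and 2.35. Each partner is 443 to 663 bp wide at a percentile of at least 97.1. In all 5 cases the same partner overlaps another, larger mESC+ peak with a percentile between 94.8 and 98.3, so the promoter as a whole ranked high in both states. Of the 510 members with a gain of at least 50 points, 489 were in this position, not being the mESC+ peak of largest overlap of their own partner.

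The 5 largest losses had the reverse form. Nup62, a nucleoporin gene, had a 745-bp member at percentile 86.6 with a partner at 11.7, and the members at Icosl, Cnksr3, Srcap and Zfp866 lost between 68.4 and 73.9 points. Each overlapped 2 or 3 mESC- peaks, and the strongest of these stood at a percentile between 75.2 and 91.7. Of the 50 members with a loss of at least 50 points, 22 overlapped 2 or more mESC- peaks. Members that overlap 1 mESC- peak which overlaps no other mESC+ peak, 14558 in number and called one-to-one pairs here, had a median change of -0.766. Of these, 1663 (11.4%) gained and 2863 (19.7%) lost at least 10 points, against 17.1% and 32.1% of 96274 one-to-one pairs farther from a start.

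Among one-to-one pairs the 5 largest gains were at Itgb5, an integrin gene, Cfap74, Ntm, Coro1c and Tacr3. The Itgb5 member went from a fold enrichment of 4.03 to 8.78, or from percentile 8.78 to 70.8, with its summit 65 bp upstream of the start. The Cfap74 member went from 4.62 to 10.2. The 5 largest losses were at Kcnk6, a potassium channel gene, Kif1a, a kinesin gene of axons, Klk11, Cox4i2 and Sbno1. The Kcnk6 member went from a fold enrichment of 8.89 to 4.08 and from a width of 503 to 304 bp. The Kif1a member, with its summit 2 bp from the start, went from 9.15 to 4.24. These 10 members changed by 53 to 62.4 points either way. The largest mESC+ fold enrichment among the 5 that lost was 11.3, at Sbno1.

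**Figure D3:**
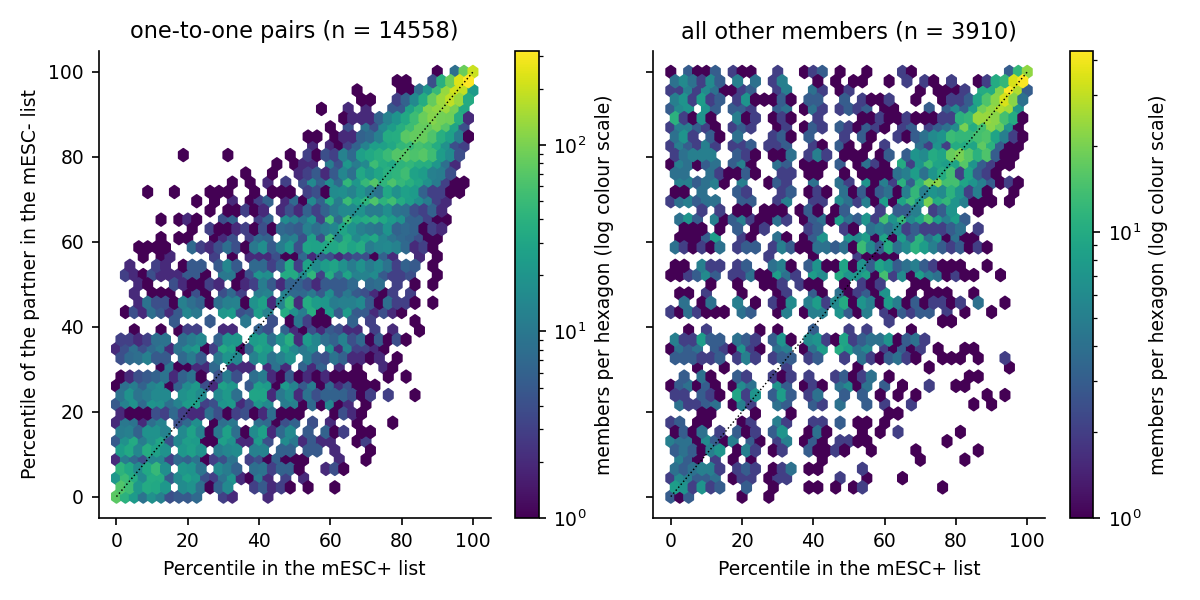
Percentile of each member in the mESC+ list (horizontal) and of its partner in the mESC- list (vertical), as hexagons coloured by the number of members on a log scale, for 14558 one-to-one pairs (left) and all other members (right). One-to-one pairs lie along the dotted diagonal and narrow at the top, while the upper left of the right panel holds small mESC+ peaks paired with a strong mESC- peak. Empty bands are gaps between tied fold enrichments, the most frequent of which is held by 7104 mESC+ peaks.

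The deposited RNA-seq table lists 2189 genes with a mean expression over 3 libraries of each state, and 1984 of these are protein-coding. By which criterion genes were listed is not given in the sources used here, and genes that define these cells, such as Pou5f1 and Nanog, are not listed, so absence from the table is not absence of expression. No gene of ribosomal proteins, mitochondrial ribosomal proteins, NADH dehydrogenase subunits, proteasome subunits or replication-dependent histones is listed. Of 1135 olfactory receptor genes, 2 are listed. The other genes thus hold these families, and the contrast is not one of expressed against silent genes. At these listed genes a member was more frequent than at others, but its rank was lower. A member was found at 1694 of 1984 listed genes (85.4%, 95% exact interval 83.8 to 86.9) and at 12486 of 19954 other genes (62.6%, 61.9 to 63.2), where 64.6% is the value over all genes. Taking the strongest member of each gene, the median percentile was 72.3 at listed and 81.2 at other genes in mESC+, and 69.8 and 80.3 in mESC-. Over members, those at listed genes had a median percentile of 55.8 (54.7 to 59.4, n = 2499) and those at other genes 69.1 (68.5 to 69.5, n = 15969). Their median widths were 343 and 374 bp.

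The shares differed mainly among promoters poor in CpG. The CpG ratio is the number of CpG dinucleotides in the 300 bp around the start over that expected from the C and G content. At starts with a ratio of at least 0.6, 96.5% of 1230 listed genes and 95.7% of 9593 other genes had a member. At starts under 0.6, the shares were 67.2% of 754 listed genes and 31.9% of 10361 other genes. The lower rank at listed genes was present in both classes in mESC+, with medians of 72.4 against 82.1 at a high ratio and 71.9 against 76.5 at a low ratio. Restricted to the 50000 strongest peaks of each list, 42% of listed and 40.6% of other genes had a member.

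Within the listed genes, the share with a member was 72.4% in the quartile of lowest mean expression (normalized signal 4.63 to 185.2) and 87.9%, 91.1% and 90.1% in the next quartiles. Median percentiles were 65.1 in the lowest quartile and 73.1, 75.2 and 72 in the others. All 4 values are below the 81.2 of genes not listed. No expression value is at hand for genes not listed, so both sets could not be set against each other at equal expression. Between the states, 21.1% of listed genes with a member had a highest percentile at least 10 points lower in mESC- and 9.5% one at least 10 points higher. Over all 14180 genes with a member these shares were 15.1% and 8.55%. With percentiles among shared peaks alone the direction turned, with 14.9% of listed genes lower and 19.2% higher, against 10.7% and 18.1% of all genes.

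Genes of pluripotency carried members that ranked below the median gene with a member, and the labelled cell type was checked on them. Of 22 pluripotency genes, 16 had a member (72.7%, 95% exact interval 49.8 to 89.3), against 64.6% of all genes. The median of their highest percentiles was 51.6 in mESC+ (38.7 to 69.8), against 80.2 over all genes with a member. By -log10 p these medians were 77.9 and 86.1. Klf5 ranked highest, at 93.6 in mESC+ and 94.5 in mESC-, and the reprogramming factors Klf4 and Sox2 were at 38.7 and 41.7 in mESC+. At Zfp42, a marker of the naive state also called Rex1, fold enrichment was 9.72 and 11.2. The members at Pou5f1 (Oct4) and Nanog, the central factors of pluripotency, were weak and narrow. The Pou5f1 member was 128 bp wide with a fold enrichment of 2.78, at percentile 0.147, and its partner was at 0.299. The Nanog member was at 12.7 and its partner at 13.3. Esrrb and Dppa3, also markers of these cells, had no member.

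Of 20 markers of differentiated tissues, 8 had a member (40%, 95% exact interval 19.1 to 63.9), against 64.6% of all genes. The interval overlaps that of the pluripotency genes, 49.8 to 89.3%. These were the fibroblast genes Col1a1, Col1a2, Thy1 and Vim, the genes Gfap of glia and Syp of neurons, Ckm of muscle and Cd3e of T cells, with percentiles between 39.8 and 81.2 in mESC+. The blood, liver, heart and skin genes Ptprc, Alb, Myh6, Krt5 and Krt14 had no summit of either list within 1 kb. Of 16 germline genes, 13 had a member (81.2%, 54.4 to 96), with a median percentile of 84.9 in mESC+ (76.2 to 91.3) and 84.7 in mESC-. Over all genes with a member these medians were 80.2 and 78.6. By -log10 p the germline median was 80.7 in mESC+, below the 86.1 of all genes. The highest of this list were Rnf17 at 97.9, Dazl, an RNA-binding protein of germ cells, at 95.4, and Stk31 at 91.3. Their fold enrichments were 18, 15.9 and 13.9, and the Dazl summit lay 803 bp downstream of the start. The lowest was Taf7l, at percentile 15.9 in mESC+. Of 16 genes of LIF signalling, 14 had a member (64.6% over all genes). The median of their highest percentiles was 59.9 in mESC+ (41.6 to 91.1) and 65.1 in mESC-, below the 80.2 and 78.6 of all genes with a member. The strongest were Jak1, at 98.2 and 95.4, Stat3, the factor activated by LIF, at 91.1 and 94.7, and Cish, a target of Stat3, at 93.6 and 88. The weakest was Pim3, at 13.9 in mESC+. At Socs3, the feedback inhibitor of this pathway, the percentile was 78.3 in mESC+ and 59.8 in mESC-, and at the receptor gene Lifr it was 41.6 and 15.5. Of these 14 genes, 3 were at least 10 points higher in mESC- (Grb2, Il6st and Myc) and 3 lower (Socs3, Lifr and Pim1), against 8.55% and 15.1% of all genes with a member. Among all genes with an mESC+ percentile between 25 and 75, these shares were 17.3% and 25.6%. The median change over the 14 genes was 3.83. By -log10 p, 1 gene of this list was at least 10 points higher and 3 lower, and the median change was -0.746. With percentiles among shared peaks alone, 5 were higher and 3 lower.

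At genes of the RA response, members more often ranked lower after RA than at genes overall. Of 28 genes, 22 had a member (64.6% over all genes). In mESC-, 12 of the 22 had a highest percentile at least 10 points lower and 2 at least 10 points higher, against 15.1% and 8.55% of all genes with a member. Genes in the middle of the list vary more, and among the 4948 genes with an mESC+ percentile between 25 and 75 the shares were 25.6% and 17.3%. Receptor genes were among the 12. Rxrg went from 76.7 to 42.8, Rxrb from 48.3 to 14.4 and Rxra from 66.1 to 52.8. Rarg, another receptor gene, went from 61.7 to 44.1. Genes that make or clear RA were also among them, with Aldh1a2, an RA-synthesizing dehydrogenase, going from 81.8 to 63.7, Dhrs3 from 54.9 to 37.5 and Cyp26a1, which degrades RA, from 30.7 to 14.5. The median change over the 22 genes was -13.4. Ranked by -log10 p instead, 10 genes were at least 10 points lower and 3 higher, and the median change was -0.203. With percentiles among shared peaks alone, 8 were lower and 5 higher, while 10.7% and 18.1% of all genes were.

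Hox genes, which RA switches on in order along the clusters, changed in both directions. Of 39 Hox genes, 23 had a member (59%), against 64.6% of all genes. Of these 23, 12 were at least 10 points lower in mESC- and 6 at least 10 points higher. Over all genes with a member these shares were 15.1% and 8.55%, and between mESC+ percentiles 25 and 75 they were 25.6% and 17.3%. By -log10 p, 13 Hox genes were lower and 4 higher. With percentiles among shared peaks alone, 10 were lower and 7 higher. Hoxb5 and Hoxb1 had the largest loss and gain of the RA response list, and the exon-free part common to both peaks of each is shown with capitals as before.
Hoxb5, chr11:96303220-96303304, plus strand: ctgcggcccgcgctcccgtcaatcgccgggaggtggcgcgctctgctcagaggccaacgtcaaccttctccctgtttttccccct
Hoxb1, chr11:96365552-96365701, plus strand: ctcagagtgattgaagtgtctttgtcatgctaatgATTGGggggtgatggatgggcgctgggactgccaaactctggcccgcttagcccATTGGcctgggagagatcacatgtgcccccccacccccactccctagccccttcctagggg
The Hoxb5 member was 117 bp wide in mESC+ and its partner 99 bp, and fold enrichment went from 6.65 to 4.01, or from percentile 49.7 to 6.7. The Hoxb1 member was 159 bp and its partner 274 bp wide, and fold enrichment went from 4.6 to 6.2, or from percentile 18.8 to 44.8. With 1 library for each state, there is no measure of the spread behind these changes.

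Of the 22 genes of early lineages, 20 had a member (64.6% over all genes). Their median percentile was 45.9 in mESC+, against 80.2 over all genes with a member. The weakest was at Sox17, an endoderm factor, at 1.18, and the strongest at Msx2, at 76.4. Tbx5, a factor of the heart, went from 14.1 to 52.1 and Gsc from 60.8 to 26.6. In this list 5 genes were at least 10 points higher in mESC- and 3 lower, against 8.55% and 15.1% of all genes with a member. Genes low in the list rise more often. Among all genes with an mESC+ percentile of 0 to 25, 35.3% were at least 10 points higher and 10.1% lower. Between 25 and 75 the shares were 17.3% and 25.6%. Of the 19 genes without a member in the RA, pluripotency, LIF, early lineage and germline lists, 10 had a shared peak within 1 kb of another transcript start of the same gene. Rarb, Esrrb, Nr5a2 and Gata4 were among them, with the shared summit 74, 23, 6 and 42 bp from such a start. Gene records begin at the outermost transcript, so absence from the member list is not absence of an open promoter.

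Large gene families differed in how often and how strongly they were covered. Over all genes, 64.6% had a member, and the median percentile of those genes was 80.2 in mESC+. A member was found at 36 of 36 genes of NADH dehydrogenase subunits, 77 of 78 mitochondrial ribosomal proteins and 43 of 48 proteasome subunits, with median percentiles of 86.5 (76 to 91.1), 84.2 (75.5 to 91.5) and 85.8 (80.7 to 92.6) in mESC+. The first pair of intervals holds the value of all genes. Zfp genes, which encode zinc finger proteins, had a member at 327 of 394 and the highest median of the families, 88.9. Genes of cytoplasmic ribosomal proteins were covered at 78 of 88, but ranked lower, with a median of 53.2, and those of replication-dependent histones had 60 of 67 and 63.6. By -log10 p the medians were 78.5 for ribosomal proteins and 86 for histones, against 86.1 for all genes, so the lower rank of histones was not found on that scale. Histone genes and ribosomal protein genes have near-identical copies, and how reads with several matches were placed is not given in the sources used here. Sensory and hair genes were rarely covered, with 22 of 1135 olfactory receptor genes, 6 of 329 vomeronasal receptor genes and 6 of 57 keratin-associated protein genes. By chromosome, the share of genes with a member was 50.6% on X, 2.19% on Y and between 51.8% and 78.2% on the autosomes.

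**Figure D4:**
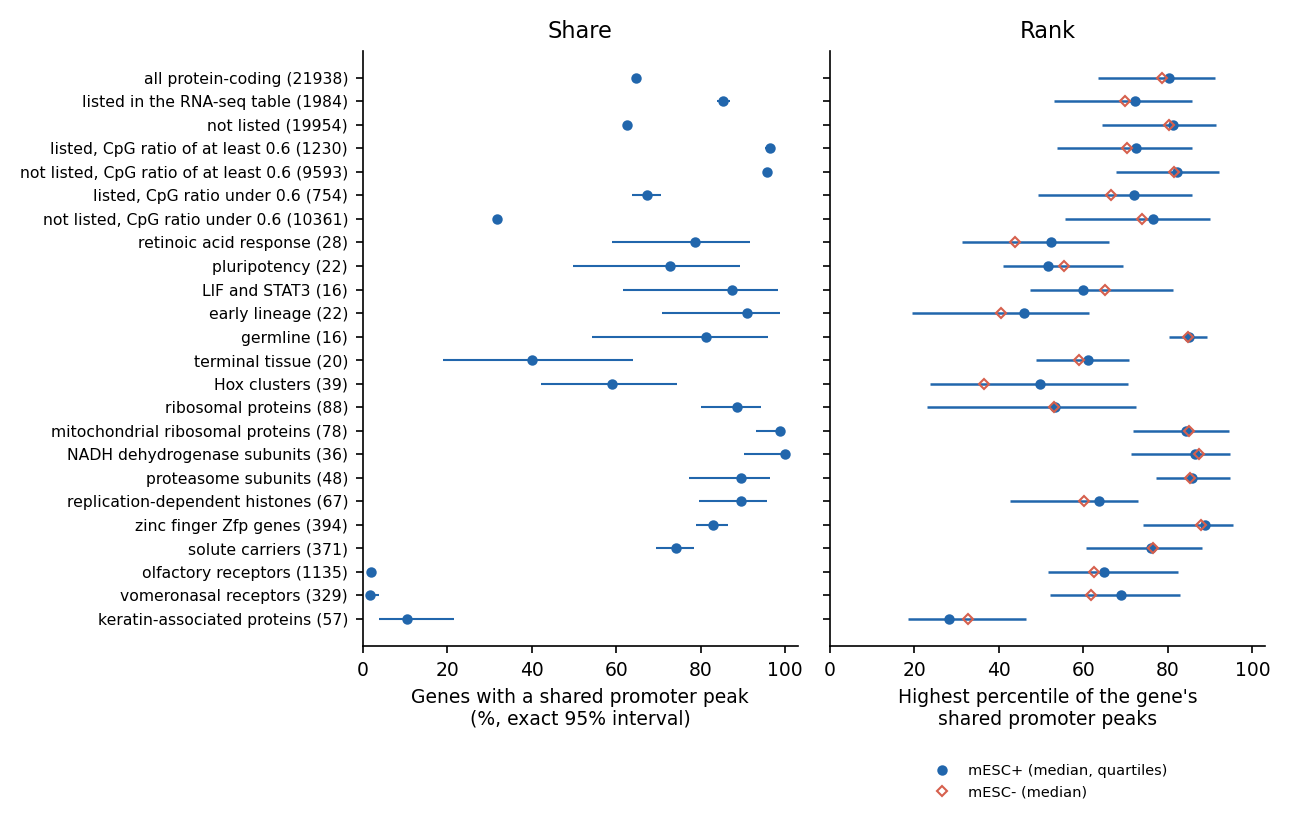
Share of protein-coding genes with a member (left, percent, bars are exact 95% intervals) and highest percentile of each gene's members (right, blue points and lines are the median and quartiles in mESC+, red diamonds the median in mESC-), with the number of genes in brackets. Listed and other genes are 67.2% and 31.9% under a CpG ratio of 0.6 and 96.5% and 95.7% at or above it, and ribosomal proteins rank at a median of 53.2 against 84.2 for mitochondrial ribosomal proteins.

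In sequence, members were rich in G, C and CpG. Over the 300 bp around the mESC+ summit, the median GC content was 62.7%, against 50.3% around shared summits beyond 1 kb and 47.3% around gene starts without a peak. A CpG ratio of at least 0.6 was found for 66.5% of members, 6.46% of shared peaks farther away and 4.07% of starts without a peak, while 49.3% of all protein-coding starts had it. Members with such a ratio had a median width of 426 bp and a median percentile of 72.1, and members under it 261 bp and 58.7. In the highest 1% of the list, the share with a high CpG ratio was 60.3%, lower than the 75.8% between percentiles 90 and 99.

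Motifs were searched as exact letters on both strands in these 300-bp windows, and a match is not evidence of binding. The GC box GGGCGG was present in 60.2% of members, 15.3% of shared peaks beyond 1 kb, 8.22% of starts without a peak and 45.5% of all protein-coding starts. The ETS core CCGGAAG was present in 13.2%, 2.89%, 2.3% and 11.5% of these sets in the same order. The NRF1 site GCATGCGC was present in 3.6%, 0.987%, 0.554% and 3.25%. The cAMP response element TGACGTCA was present in 2.4%, 0.356%, 0.781% and 2.34%, the YY1 site AAGATGGCG in 2.2%, 0.771%, 0.199% and 2.2%, and the ZBTB33 site CTCGCGAG in 1.46%, 0.0801%, 0.0426% and 1.18%. The E-box CACGTG was present in 8.91%, 4.92%, 3.46% and 7.43%. None of these 7 motifs contains another of them, but some can share end bases, as GCGC or CCGG do.

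Motifs of regulated or distal elements were rarer in members than in shared peaks beyond 1 kb. They were also rarer than at starts without a peak, except that the intervals overlap for the octamer given below. The TATA box TATAAA was present in 4.22% of members, 11.2% of shared peaks beyond 1 kb, 20.6% of starts without a peak and 10.6% of all starts. The AP-1 site TGANTCA was present in 4.39%, 10.2%, 9.53% and 5.94%, and the nuclear receptor hexamer AGGTCA in 12.1%, 20.9%, 19% and 13.8%. The octamer ATGCAAAT bound by Pou5f1 was present in 1.29%, 3.22%, 1.58% and 1.27%, and the Sox site AACAATGG in 0.601%, 1.81%, 1.66% and 0.83%. The octamer interval was 1.13 to 1.46% for members and 1.3 to 1.89% for starts without a peak. The CCAAT box was at nearly the same share in members (33.4%) and in shared peaks beyond 1 kb (33.2%), and at 39.4% of starts without a peak and 36.6% of all starts. These sets differ in base composition, which sets how often such letters appear, and the part of composition was not tested.

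Although its overall share was ordinary, the CCAAT box had the widest range in percentage points over the rank classes of the members, compared with the GC box, ETS core and TATA box. It was present in 21.9% of members in the lowest 25 percentiles of the mESC+ list, 52.4% between 90 and 99 and 65.4% of the 312 members above 99 (95% exact interval 59.8 to 70.7). Over shared peaks beyond 1 kb, the same shares were 30.1%, 36.4% and 41.3%. Members with a CCAAT box had a median percentile of 79.1 in mESC+ and 79.8 in mESC-, and those without it 60.8 and 62.4. The ETS core went from 5.33% in the lowest 25 percentiles to 24.3% between 90 and 99, and the GC box from 47.7% to 68.6%. Above 99 these were at 20.8% and 55.8%. The TATA box stayed between 3.04% and 5.51% in every class. Rank also followed the distance of the summit from the start, and so did the other motifs. With a summit within 200 bp, 38.5% of members had a CCAAT box, 18.3% an ETS core and 68.9% a GC box. With a summit over 500 bp away, these shares were 27.6%, 5.82% and 42.3%. The part of position in the differences by rank was not tested.

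**Figure D5:**
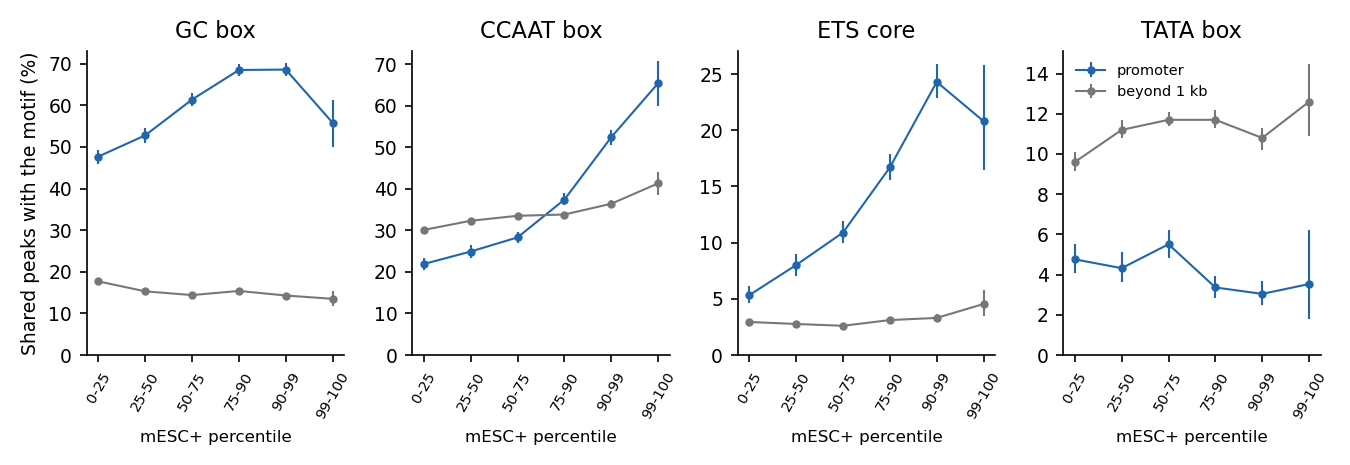
Share of members (blue) and of shared peaks beyond 1 kb of a start (grey) with each of 4 motifs in the 300 bp around the mESC+ summit (vertical axis, percent, own scale in each panel, bars are exact 95% intervals), by class of mESC+ percentile (horizontal axis). The CCAAT box goes from 21.9% to 65.4% of members across the classes, and the ETS core reaches 24.3% between 90 and 99.

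At listed genes, members held the GC box in 63.2% of cases and the ETS core in 6.96%, against 59.7% and 14.1% at other genes. The CCAAT box was at 32.8% and 33.5%, and a high CpG ratio was found for 63.3% and 67.1%. The nuclear receptor hexamer was at 12.7% and 12%. The ETS core and the YY1 site, at 0.88% against 2.4%, were thus the motifs less frequent at listed genes by the largest factors, with NRF1 at 1.96% against 3.85%.

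The study's list of dynamic enhancers comes from a classifier built to separate enhancers from active promoters. It holds only regions called different between the states. The overlap with members is thus not independent of how the regions were chosen, and the part of either choice was not tested. Of 327 such regions, 7 overlapped a member, and 8 members were involved. Of shared peaks beyond 1 kb, 403 overlapped 1 of these regions. The 8 members lay nearest to the starts of Agtrap, with 2 members, BC048679, Efnb3, Fbxo6, Ly6g6e, Noct and Zfp182. At Noct, which encodes a circadian phosphatase, the percentile was 40.8 in mESC+ and 53.4 in mESC-, and at Ly6g6e it was 42.9 and 13.4.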

How the data were processed

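Omni-ATAC-seq was done on 1 library of E14 cells for each state. The authors aligned read pairs to the mouse genome (GRCm38, BWA-MEM) and filtered out duplicate reads (SAMtools). MACS2 was then run on either library alone. The MACS2 parameters are not given in the sources used here. The deposited peak lists hold the position, the summit, the fold enrichment at the summit (a ratio) and -log10 p and q values. The deposited RNA-seq table holds, for each listed gene, a mean normalized signal (counts divided by size factors, made by the authors) over 3 libraries of each state. Its columns of fold changes, scores and p-values, and the cluster and p-value columns of the dynamic enhancer list, are the authors' own comparisons and were not used.

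Summits were placed against the 5′ ends of protein-coding gene records of GRCm38 on chromosomes 1 to 19, X and Y, which leaves out 78 mESC+ and 62 mESC- peaks on other sequences. Percentiles are the average rank within a list, so tied peaks share 1 value. For a gene with several members, the highest percentile was used in each state. Shares have exact Clopper-Pearson intervals and medians binomial order-statistic intervals, at 95%. With 1 library per state and members chosen by the lists themselves, no test was run. The members and gene lists were chosen with earlier results of these data known. Named genes are those of 6 regulatory or marker lists, the 5 members with the highest mean percentile, the 5 widest, the 5 largest gains and losses, and the 3 peaks on each side of the 1 kb limit. The 10 one-to-one pairs, the families and the genes at dynamic enhancers were named after their values were seen. A few genes of the lists are not reported here by name. Scripts used Python 3.11.15, numpy 2.4.6, pandas 2.3.3, scipy 1.17.1 and pysam 0.24.0, and the overlap, distance, interval and motif steps were tested on simulated data.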

Additional observations from a re-analysis of the deposited data

How the results depend on the processing

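In 14 alternatives, 125 values were recomputed. Of these, 40 counted as unchanged (within the counting interval or, for the number of members, within 1.5 times), 83 moved beyond that and 2 crossed 50%. The setting that kept each interval once could not change any value, because no interval was given more than once. Its values are among the 40, and it also counts in the settings of the next comparisons. The number of members ranged from 8215 to 22661. The share of genes with a member was higher at listed genes in 9 of 9 settings, and the rank of members was lower there in 10 of 10. Below, percentiles are medians and shares of genes are in the order all, listed and other.

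With a distance of 500 bp, widths were 412.5 and 436 bp (mESC+ and mESC-), percentiles 73.5 and 74.3, shares of genes 60.1%, 78.8% and 58.3%, and percentiles at listed and other genes 64.7 and 75.3. With 2 kb, these were 333 and 352 bp, 63.7 and 64, 68.7%, 89.9% and 66.6%, and 53.5 and 65, and 46.7% of members ranked higher in mESC-. With the start of any protein-coding transcript, widths were 348 and 367 bp, percentiles 65.1 and 65.5, shares 68.2%, 91.9% and 65.9% (26 points apart), and the percentile at other genes 67. With an overlap of 50% of both peaks, the mESC+ width was 400 bp, percentiles 72.8 and 70.8, the share ranked higher 45.1%, shares of genes 60.2%, 79.3% and 58.3%, and percentiles at listed and other genes 64.3 and 73.7.

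With a -log10 q of at least 10, 11473 members remained, with widths of 489 and 494 bp, percentiles of 61.9 and 57.4 among the peaks kept, 41.3% ranked higher, shares of genes of 52.7%, 65.4% and 51.4% (13.9 points apart), and percentiles at listed and other genes of 49 and 64.5 (difference -15.6). With the top 50000 peaks of each list, there were 8215 members with widths of 522 and 524 bp, percentiles of 61 and 65.3, 59.5% ranked higher, shares of 40.7%, 42% and 40.6% (1.38 points apart, interval -1.49 to 4.27), and percentiles of 53.3 and 61.8 (difference -8.57).

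Ranked by -log10 p, percentiles were 75.5 and 75.6, 44.4% ranked higher, and percentiles at listed and other genes were 69.2 and 76.2 (difference -6.91). With percentiles over shared peaks, 57% ranked higher, and the cause was not tested. At genes with a CpG ratio of at least 0.6, shares were 96.5% and 95.7% (0.841 points apart, interval -0.743 to 2.22) and the percentile at other genes 69.8. At genes without another start within 1 kb, the share of other genes was 58.2% (26.4 points apart).

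Pairings added after seeing the data were reciprocal best pairs, in which a member is also the mESC+ peak of largest overlap of its partner (390 and 374 bp, mESC+ percentile 69.6, 44.8% ranked higher), and one-to-one pairs (363.5 and 349 bp, 69.2 and 66.6, 44.8%). No paired analysis was possible because each state has 1 ATAC-seq library and no result comes from a test. Read depth is unknown, so a peak absent from 1 list may lie under its calling limit.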
